A study of Homo sapiens with 9 samples.

Results

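The fatty acid synthesis and desaturation genes were followed in THP-1 cells treated with lupeol, a triterpene of plants. THP-1 is a human suspension line derived from acute monocytic leukaemia. The set was chosen by symbol and holds 10 of the 67927 genes of the count table, of which 33754 had a count in any library: the transcription factor gene SREBF1, the synthesis enzymes ACLY, ACSS2, ACACA and FASN, the elongases ELOVL5 and ELOVL6, and the desaturases SCD, FADS1 and FADS2. RNA was taken 48 h after treatment from 3 groups of 3 libraries: a control given the solvent of lupeol, and cells given 50 µmol/L or 80 µmol/L of it, called lupeol 50 and lupeol 80. All groups share the same line, medium and time, and the labels do not state whether libraries of one group were grown as separate cultures. The p-values below cover the spread among libraries, and this spread may be technical.

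Cells build saturated fatty acids in the cytosol from acetyl-CoA, which is carboxylated to malonyl-CoA and condensed into palmitate by a multienzyme synthase. Elongases lengthen the chains and desaturases insert double bonds, and the products feed membranes and storage lipid. SREBP1, the protein of SREBF1, is a membrane-bound transcription factor that is cleaved and enters the nucleus to switch on most of these enzymes, while its relative SREBP2 mainly drives cholesterol synthesis.

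Library totals ran from 26134744 counts in control 1 to 38430299 in lupeol 80 replicate 1. That replicate also had the most genes with a count, 26285, against 23472 to 25309 in the others. Over the whole table, its chi-square for each degree of freedom was 43.24 and 58.26 against lupeol 80 replicates 2 and 3, and 26.35 between those. The part of depth in the results below was not tested. The control libraries are named 1, A and B, since A and B carry the same column heading. Control B, lupeol 80 replicate 1 and lupeol 50 replicate 1 stood apart from the rest of their groups in several of the genes below, so results that rest on them are given with and without them. Of 12 markers of monocytic lines, 11 were above 1 CPM (counts scaled to library size with TMM factors) in every library, and CD68 was below 1 CPM in all. The summed level of the 12 was 1579 to 1694 CPM in control, 1530 to 1584 CPM at lupeol 50 and 1274 to 1469 CPM at lupeol 80. Of the 11 tested, 6 were below control at lupeol 80 and 7 at lupeol 50, and 1 was called, against 1.14% of all genes at lupeol 80. That gene, CEBPA, which encodes a myeloid transcription factor, fell to 160, 203 and 182 CPM at lupeol 80, against 349, 332 and 268 CPM in control (log2 fold change -0.80 ± 0.15, SE, edgeR adjusted p = 0.023), a call lost without control 1. The 5 T cell, 5 erythroid, 5 epithelial and 5 fibroblast markers were all below 1 CPM in every library, while among B cell markers PAX5 was above it throughout and MS4A1 was at 0. PAX5 had 41.7, 48.5 and 40.7 CPM in control, 38.3, 59.6 and 57.5 CPM at lupeol 50, and 31.1, 34.0 and 17.6 CPM at lupeol 80, and the part of these marker levels in the results below was not tested. In bulk RNA, fewer cells of a type and less RNA per cell cannot be told apart.

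In brief, the transcripts of 8 of the 9 genes with enough counts for a test averaged less than control at each dose, and ELOVL5 was the exception. None of the 9 passed edgeR's quasi-likelihood test after Benjamini-Hochberg adjustment over the 17568 genes tested, in any of 4 comparisons. Over all libraries, SREBF1 and the desaturases SCD, FADS1 and FADS2 had their lowest averages at lupeol 50, but for SREBF1, FADS1 and FADS2 this order rested on lupeol 80 replicate 1. The other two lupeol 80 libraries averaged 0.424 times control for SREBF1, 0.581 for FADS1, 0.255 for FADS2 and 0.389 for SCD, against 0.473, 0.611, 0.270 and 0.368 times control at lupeol 50 in that order. FASN, ACACA and ACLY had their lowest averages at lupeol 80, though for ACACA not without lupeol 80 replicate 3. ELOVL6 was close to undetected.

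**Figure D1:**
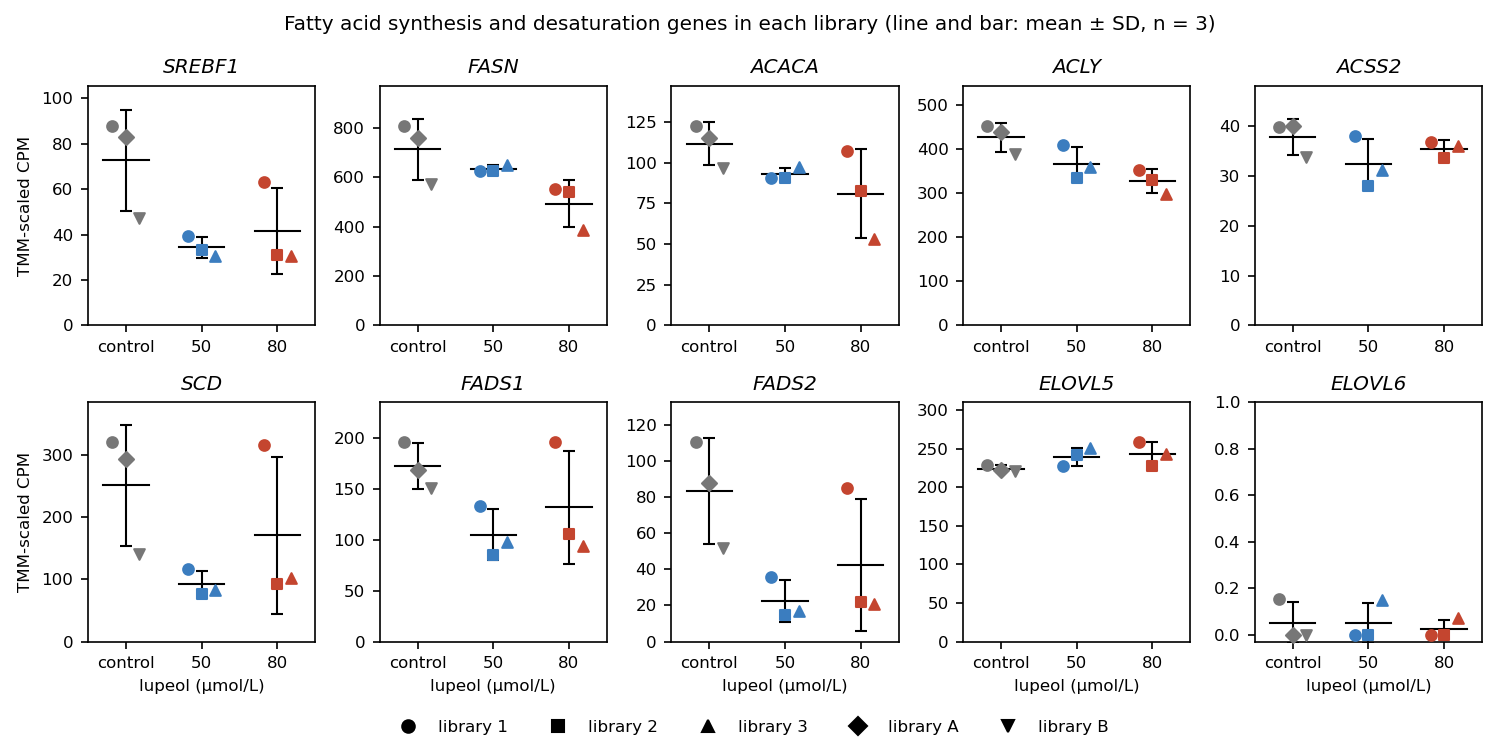
TMM-scaled CPM (vertical axes, linear) of each gene in every library, by lupeol concentration in µmol/L (horizontal axes), where each symbol is 1 library and the line and bar give the mean and SD of 3 libraries. In the SCD, FADS1 and FADS2 panels, lupeol 80 replicate 1 lies among or near the controls (SCD 316 CPM) while the other two lupeol 80 libraries lie near lupeol 50 (SCD 92.8 and 103 CPM).

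SREBF1 (ENSG00000072310.18, chromosome 17, 17810399 to 17837002, minus strand, deposited coordinates, as for all genes here, on what the table's other gene IDs show to be GRCh38) encodes the transcription factor SREBP1. It had 87.8, 82.9 and 47.2 CPM in controls 1, A and B, 39.4, 33.2 and 30.4 CPM in lupeol 50 replicates 1 to 3, and 63.3, 31.0 and 30.6 CPM in lupeol 80 replicates 1 to 3. All lupeol 50 libraries lay below every control, while lupeol 80 replicate 1 lay above control B. The log2 fold change was -0.80 ± 0.34 (SE) at lupeol 80 (edgeR adjusted p = 0.25) and -1.08 ± 0.34 at lupeol 50 (adjusted p = 0.29). SREBF1 shares 556 exon bases with RAI1, which lies on the other strand, and whether counting used strand is not stated in the labels.

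A pair of enzymes supplies cytosolic acetyl-CoA: ACLY (ENSG00000131473.17, chromosome 17, 41866917 to 41930542, minus strand) cleaves citrate and ACSS2 (ENSG00000131069.20, chromosome 20, 34872146 to 34927962, plus strand) activates acetate. ACLY had 454, 439 and 390 CPM in control, 409, 335 and 359 CPM at lupeol 50, and 354, 330 and 300 CPM at lupeol 80. The lupeol 80 libraries lay below every control, and lupeol 50 replicate 1 lay between the controls. The log2 fold change was -0.38 ± 0.12 (SE) at lupeol 80 (edgeR adjusted p = 0.095) and -0.22 ± 0.12 at lupeol 50 (adjusted p = 0.46). ACSS2 had 39.8, 40.0 and 33.7 CPM in control, 37.9, 28.0 and 31.1 CPM at lupeol 50, and 36.8, 33.5 and 35.9 CPM at lupeol 80. Its groups overlapped throughout, with log2 fold changes of -0.10 ± 0.14 at lupeol 80 (edgeR adjusted p = 0.74) and -0.23 ± 0.14 at lupeol 50 (adjusted p = 0.52).

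ACACA and FASN carry out the synthesis itself. ACACA (ENSG00000278540.5, chromosome 17, 37084992 to 37406836, minus strand), the acetyl-CoA carboxylase that makes malonyl-CoA, had 123, 115 and 97.0 CPM in control, 90.3, 90.8 and 97.6 CPM at lupeol 50, and 107, 82.3 and 52.8 CPM at lupeol 80. The groups overlapped, and lupeol 80 replicate 3 was the lowest library. The log2 fold change was -0.46 ± 0.20 (SE) at lupeol 80 (edgeR adjusted p = 0.22) and -0.26 ± 0.20 at lupeol 50 (adjusted p = 0.62). FASN (ENSG00000169710.9, chromosome 17, 82078338 to 82098294, minus strand), the synthase that builds palmitate, had 809, 759 and 572 CPM in control, 627, 627 and 651 CPM at lupeol 50, and 553, 543 and 386 CPM at lupeol 80. The 3 lupeol 80 libraries lay below all 6 others, although the highest of them stood at 553 CPM beside 572 CPM in control B. The log2 fold change was -0.53 ± 0.15 at lupeol 80 (edgeR adjusted p = 0.076), the smallest adjusted p of any of these genes, and -0.17 ± 0.15 at lupeol 50 (adjusted p = 0.68).

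The 2 elongases were found at very different levels. ELOVL5 (ENSG00000012660.14, chromosome 6, 53267398 to 53349179, minus strand), which lengthens polyunsaturated chains, had 229, 222 and 222 CPM in control, 227, 242 and 250 CPM at lupeol 50, and 259, 228 and 243 CPM at lupeol 80. It varied least among the tested genes, 1.17-fold between its lowest and highest library, and its log2 fold change was 0.12 ± 0.10 (SE) at lupeol 80 (edgeR adjusted p = 0.57) and 0.10 ± 0.10 at lupeol 50 (adjusted p = 0.75). ELOVL6 (ENSG00000170522.10, chromosome 4, 110045846 to 110199199, minus strand), which lengthens palmitate to stearate, had 4, 0 and 0 counts in control, 0, 0 and 4 at lupeol 50, and 0, 0 and 2 at lupeol 80. With 10 counts over 9 libraries it was left out of the test, and a count of 0 allows up to 0.0781 to 0.11 CPM in those libraries (3 counts, counting error only).

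The largest fold changes were those of the desaturases FADS2 and SCD at lupeol 50. SCD (ENSG00000099194.6, chromosome 10, 100347233 to 100364826, plus strand), which makes oleate from stearate, had 321, 293 and 140 CPM in control, 117, 76.7 and 83.4 CPM at lupeol 50, and 316, 92.8 and 103 CPM at lupeol 80. Every lupeol 50 library lay below the lowest control, while lupeol 80 was split, with replicate 1 inside the control range. The log2 fold change was -0.56 ± 0.57 (SE) at lupeol 80 (edgeR adjusted p = 0.65) and -1.44 ± 0.58 at lupeol 50 (adjusted p = 0.40). Its processed pseudogene SCDP1 held 6 counts over the 9 libraries, against 46569 for SCD.

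FADS1 and FADS2 encode the delta-5 and delta-6 desaturases of polyunsaturated fatty acid synthesis and are neighbours on chromosome 11. FADS1 (ENSG00000149485.19, 61799627 to 61829318, minus strand) had 196, 169 and 151 CPM in control, 133, 85.2 and 97.4 CPM at lupeol 50, and 196, 106 and 94.0 CPM at lupeol 80. FADS2 (ENSG00000134824.14, 61792980 to 61867354, plus strand) had 110, 87.6 and 51.9 CPM in control, 35.6, 14.8 and 17.0 CPM at lupeol 50, and 84.9, 21.9 and 20.6 CPM at lupeol 80. For both genes the lupeol 50 libraries lay below every control, and lupeol 80 replicate 1 again lay with the controls. The FADS2 log2 fold change was -0.97 ± 0.69 (SE) at lupeol 80 (edgeR adjusted p = 0.50) and -1.89 ± 0.71 at lupeol 50 (adjusted p = 0.37), and FADS1 stood at -0.38 ± 0.29 (adjusted p = 0.51) and -0.71 ± 0.29 (adjusted p = 0.38) in the same order. Their exons share 490 bases on opposite strands, so a small part of the reads of either could belong to its neighbour, and FADS2 shares a further 49 bases with FEN1.

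The sequences upstream of 3 genes are shown, because these genes span the behaviour seen here from wide to narrow variation. Each is the 250 bases before a RefSeq transcription start on GRCh38.p14, 5′ to 3′ on the strand of the gene, and capitals mark matches to the motifs named below. SCD, which varied widely between libraries, lies at chr10:100346983-100347232 (plus strand), ACLY, which varied less, at chr17:41919023-41919272 (minus strand), and ELOVL5, which varied least, at chr6:53348951-53349200 (minus strand).
SCD: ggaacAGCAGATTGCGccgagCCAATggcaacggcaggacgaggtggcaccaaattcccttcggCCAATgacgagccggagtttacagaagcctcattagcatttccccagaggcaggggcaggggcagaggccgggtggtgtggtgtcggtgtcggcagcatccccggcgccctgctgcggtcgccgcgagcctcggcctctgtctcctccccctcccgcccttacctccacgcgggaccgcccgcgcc
ACLY: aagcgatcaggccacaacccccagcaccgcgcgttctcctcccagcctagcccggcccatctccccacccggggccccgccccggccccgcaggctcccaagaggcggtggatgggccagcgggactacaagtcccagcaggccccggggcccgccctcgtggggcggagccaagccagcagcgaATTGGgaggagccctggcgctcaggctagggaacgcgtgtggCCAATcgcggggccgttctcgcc
ELOVL5: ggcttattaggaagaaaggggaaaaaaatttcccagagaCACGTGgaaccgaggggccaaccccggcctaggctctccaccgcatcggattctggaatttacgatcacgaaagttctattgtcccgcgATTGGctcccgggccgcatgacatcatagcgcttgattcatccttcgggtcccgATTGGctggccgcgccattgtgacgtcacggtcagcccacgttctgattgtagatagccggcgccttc

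Windows were found for 9 of the 10 genes, FASN being without one. Both strands were searched. The sterol element core TCACNCCAC was in no window of these genes and in 0.883% of 35116 windows of all genes. The longer variant known from SCD promoters was searched with its next-to-last base free and was in the SCD window as AGCAGATTGCG, from 245 to 235 bases before the start, and in 0.0256% of all windows. Since the variant was taken from SCD promoters, a match in SCD was foreseen and does not set SCD apart from the other genes. The NF-Y box CCAAT, read as ATTGG on the other strand, was in 7 of the 14 windows of these genes (5 of the 9 genes), against 32% of all windows, and the E-box CACGTG was in 1, ELOVL5, against 6.34%. The GC box GGGCGG was in 11 of the 14 windows (8 of the 9 genes), against 42.6%, and is not in capitals. Several of these genes have more than 1 window. The ACLY windows overlap and hold the same NF-Y boxes and some of the same GC boxes, so the counts of windows hold some sites more than once. The shares of all windows are not shares of genes. Matches of different motifs did not overlap in the 3 windows shown, and a match in this window is a description, not a site in use.

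The comparison of lupeol 80 with control asked what the higher dose altered. Of all 17568 genes, edgeR called 1.14% at an adjusted p under 0.05, with 0.854% lower and 0.29% higher, and none of the 9 tested members was among them. Without control 1, 0 of the genes were called, and without control A 1 was. An unadjusted p under 0.05 was found for SREBF1, FASN, ACACA and ACLY, all lower, against 10.7% of all genes with such a p and a lower value and 19.5% with such a p in either direction. DESeq2 called FASN and ACLY lower, against 4.65% of the genes it tested, and limma-voom called no member. The median log2 fold change of the 9 was -0.46, against 0.01 over all tested genes, and 8 of 9 were below 0, against 48.9% of all genes. FASN and ACLY had all 3 lupeol 80 libraries below all controls, as did 12.9% of all genes.

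The comparison of lupeol 50 with control asked the same of the lower dose. No gene of the whole table was called by edgeR (0%), and 2183 genes had an unadjusted p under 0.05. Among them were SREBF1, SCD, FADS1 and FADS2, all lower, against 6.02% of all genes. DESeq2, which called 210 genes, and limma-voom, which called none, called no member. The median log2 fold change of the 9 was -0.26, against -0.00 over all tested genes, and 8 of 9 were below 0, against 50.5% of all genes. SREBF1, SCD, FADS1 and FADS2 also had every lupeol 50 library below every control, as did 9.63% of all genes. Both dose comparisons use the same 3 controls.

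Between the doses, lupeol 80 against lupeol 50, edgeR called 0.0455% of all genes (0.0114% lower and 0.0342% higher) and no member, and DESeq2 and limma-voom called no member either. FASN alone had an unadjusted p under 0.05, against 15.4% of all genes and 8.18% with a lower value, with a log2 difference of -0.36 ± 0.15 (SE, edgeR adjusted p = 0.26), and it alone had all lupeol 80 libraries below all lupeol 50 libraries, as did 9.63% of all genes. FADS2 stood at 0.92 ± 0.70 and SCD at 0.89 ± 0.58 (edgeR adjusted p = 0.58 and 0.52). Without lupeol 80 replicate 1, SCD stood at 0.09, FADS1 at -0.07 and FADS2 at -0.08, so the higher desaturase levels at lupeol 80 than at lupeol 50 rested on that library.

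With both doses set against control, 6 libraries against 3, edgeR called no gene of the table (0%) at an adjusted p under 0.05, and 2897 genes had an unadjusted p under 0.05. SREBF1 at -0.94 ± 0.29 (SE), FASN at -0.35 ± 0.12, ACLY at -0.30 ± 0.10, FADS2 at -1.43 ± 0.57 and ACACA at -0.36 ± 0.17 had such a p, all lower, against 9.13% of all genes. Their edgeR adjusted p lay between 0.16 and 0.30. DESeq2 and limma-voom called no member. Without lupeol 80 replicate 1, SREBF1 and FADS1 were called lower, against 0.739% of all genes. No member had all 6 lupeol libraries below all 3 controls, a pattern held by 3.55% of all genes.

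**Figure D2:**
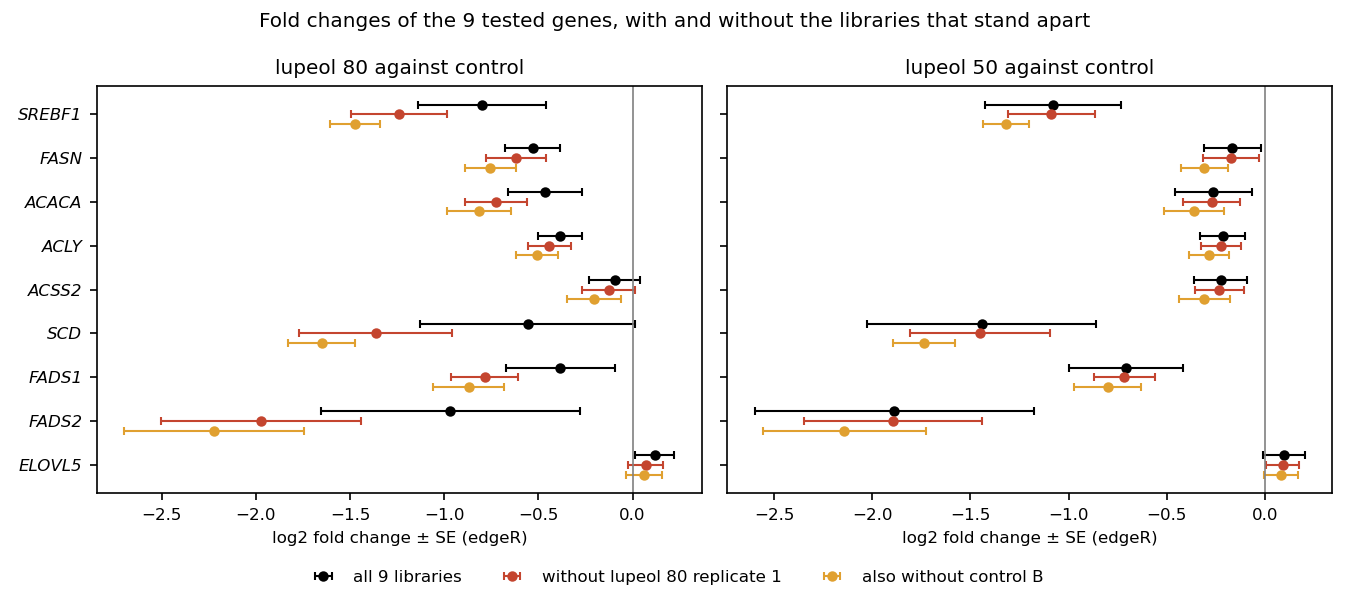
Log2 fold change ± SE from edgeR (horizontal axes) of the 9 tested genes (rows) for lupeol 80 (left) and lupeol 50 (right) against control, with all 9 libraries in black, without lupeol 80 replicate 1 in red and also without control B in yellow. At lupeol 80, SCD stands at -0.56, -1.36 and -1.65 in that order, while ELOVL5 stays between 0.06 and 0.12.

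In lupeol 80 replicate 1, FADS2 was 3.99 times, SCD 3.23 times, SREBF1 2.06 times and FADS1 1.96 times the mean of the other two lupeol 80 libraries, whereas FASN was 1.19 times and ACLY 1.12 times that mean. In control B, SCD was 0.458 times, FADS2 0.524 times and SREBF1 0.553 times the mean of controls 1 and A. Both libraries thus stood apart from their groups in SCD, FADS2 and SREBF1, in opposite directions.

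Without lupeol 80 replicate 1, the lupeol 80 fold change was -1.97 ± 0.53 (SE) for FADS2, -1.36 ± 0.41 for SCD, -1.24 ± 0.25 for SREBF1 and -0.79 ± 0.18 for FADS1. The edgeR adjusted p then lay between 0.064 and 0.17, so none of the 4 was called. Without control B, FASN was called lower at lupeol 80 (log2 fold change -0.66 ± 0.14, edgeR adjusted p = 0.044), against 0.801% of all genes. Leaving out both libraries, 6 members were called lower at lupeol 80 and 3 at lupeol 50. The 3 were SREBF1, SCD and FADS1, and the other 3 at lupeol 80 were FASN, ACACA and ACLY. This pair of libraries was chosen with their values known, so these calls are not independent evidence, and the same fits called 2.64% of all genes lower at lupeol 80 and 2.21% at lupeol 50. Without lupeol 50 replicate 1, in which FADS2 stood at 35.6 CPM beside 14.8 and 17.0 CPM in the other two, the lupeol 50 fold change was -2.39 ± 0.82 for FADS2, -1.65 ± 0.71 for SCD, -1.19 ± 0.42 for SREBF1 and -0.91 ± 0.30 for FADS1. No member was then called (edgeR adjusted p from 0.18 to 0.35 for these 4), while 427 genes of the table were.

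**Figure D3:**
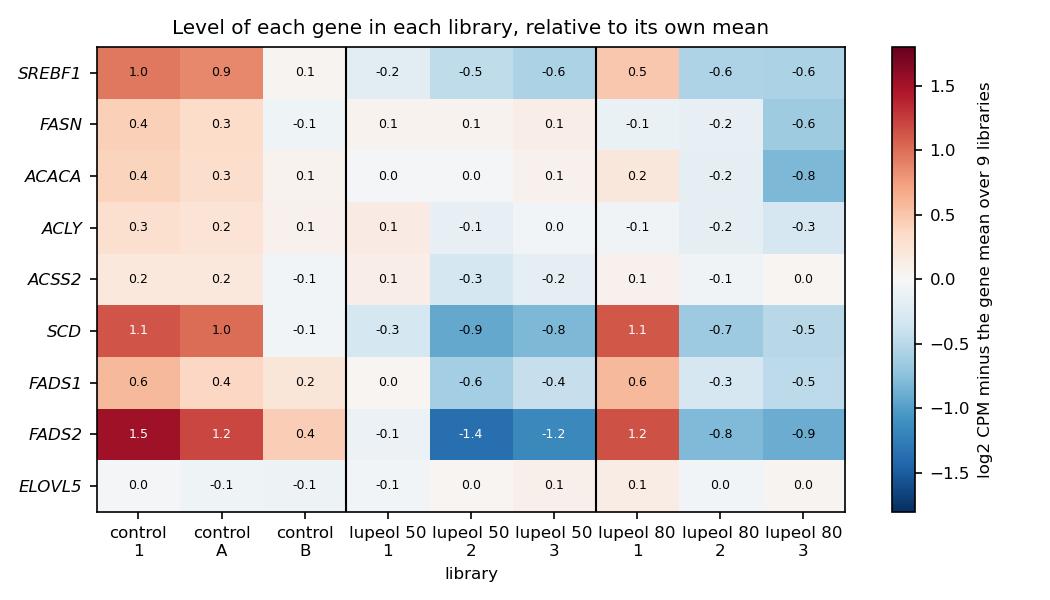
Log2 CPM minus the mean of the gene over the 9 libraries, as colour and number, for the 9 tested genes (rows) in each library (columns, by group). FADS2 runs from 1.53 in control 1 to -1.36 in lupeol 50 replicate 2, and control B and lupeol 80 replicate 1 break the pattern of their groups in SREBF1, SCD and FADS2.

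Across the 9 libraries the genes fell into sets of like profile, described here after their values were seen. Pearson's r of log2 CPM was 0.91 to 0.98 among SREBF1, SCD, FADS1 and FADS2, and 0.81 to 0.91 among FASN, ACACA and ACLY. Between these sets it was 0.45 to 0.79. ACSS2 had an r of 0.72 to 0.80 with the first set and 0.22 to 0.60 with the second. ELOVL5 had an r of -0.55 to -0.10 with the other 8. The 9 points share group, library and depth, so these are descriptions of the libraries.

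Over the same 9 libraries, the genes nearest to SCD among 10770 candidates were LMO4 (r = 0.99), FDFT1 (0.98), GGA2 (0.98), INSIG1 (0.98), ALDH2 (0.98), ALAD (0.98), PNPLA3 (0.98) and DHCR7 (0.97). Among those nearest to the mean profile of the 9 tested members were SREBF2 (r = 0.99), ACAT2 (0.98), DHCR7 (0.98), FDFT1 (0.97), SEPTIN6 (0.97), ALAD (0.97) and MVK (0.97). INSIG1 had 152, 144 and 81.5 CPM in control, 52.0, 42.9 and 44.0 CPM at lupeol 50, and 175, 42.7 and 42.5 CPM at lupeol 80. INSIG1 was picked for its likeness to SCD over these libraries, so its split within lupeol 80 is no separate observation.

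Ratios of genes within a library do not depend on its scaling. The log2 ratio of FADS1 to FADS2 counts was 0.83, 0.95 and 1.54 in control, 1.90, 2.52 and 2.52 at lupeol 50, and 1.21, 2.27 and 2.19 at lupeol 80. All lupeol 50 ratios were above every control ratio, while lupeol 80 replicate 1 lay within the control range. With both doses the mean ratio was 2.10 ± 0.50, against 1.11 ± 0.38 in control (SD, n = 6 and 3), a difference of 1.00 (exact permutation test, two-sided, p = 0.036, adjusted p = 0.30 over 9 ratio tests). At lupeol 50 alone it was 2.31 ± 0.36, against 1.11 ± 0.38 in control (SD, n = 3 each, exact permutation p = 0.1, which is the smallest that 3 against 3 can give). At lupeol 80 alone it was 1.89 ± 0.59, against the same control mean, a difference of 0.78 (exact permutation p = 0.2, adjusted p = 0.39).

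The log2 ratio of SCD to FASN was -1.33, -1.37 and -2.03 in control, -2.42, -3.03 and -2.96 at lupeol 50, and -0.81, -2.55 and -1.91 at lupeol 80. The lupeol 50 ratios lay below all controls, with a difference of -1.23 (exact permutation p = 0.1, adjusted p = 0.30). The lupeol 80 difference of -0.18 had an exact permutation p of 0.9. SREBF1 and SREBF2, the genes of the 2 SREBP factors, are set side by side next: their log2 ratio averaged -2.26 ± 0.11 at lupeol 80 and -2.31 ± 0.16 at lupeol 50, against -2.21 ± 0.22 in control (SD, n = 3 each), with an exact permutation p of 0.6 and 0.5. SREBF2 itself had a log2 fold change of -0.73 ± 0.29 (SE) at lupeol 80 (edgeR adjusted p = 0.22). At lupeol 50 it was -0.92 ± 0.29 (edgeR adjusted p = 0.29), and SREBF2 was not called. In lupeol 80 replicate 1 SREBF2 stood at 289 CPM, above control B at 260 CPM.

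Per kilobase of exon, the genes spanned a wide range of levels. In control, ACLY averaged 82.1 ± 6.42 RPKM, FASN 76.5 ± 13.4, ELOVL5 58.8 ± 1.06 and SCD 47.9 ± 18.5 (SD, n = 3), and the libraries of neighbours in this order overlapped except for FASN and ELOVL5. FADS1 followed at 16.8 ± 2.21 RPKM, below every SCD library. SREBF1 at 8.82 ± 2.69, ACACA at 8.57 ± 1.01, FADS2 at 7.90 ± 2.80 and ACSS2 at 7.20 ± 0.68 RPKM overlapped each other, and ELOVL6 stood at 0.021, 0 and 0 RPKM. At lupeol 50, SCD averaged 17.6 ± 4.11, FADS2 2.13 ± 1.09 and SREBF1 4.17 ± 0.56 RPKM. FADS2 was below SREBF1 within each of these 3 libraries. The same order already held within each control library (10.5 against 10.7, 8.31 against 10.1 and 4.92 against 5.73 RPKM), by a smaller margin. The length used is that of all annotated exons merged (10553 bases for FADS2 and 5245 for SCD), so genes with many long alternative exons read low on this scale.

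**Figure D4:**
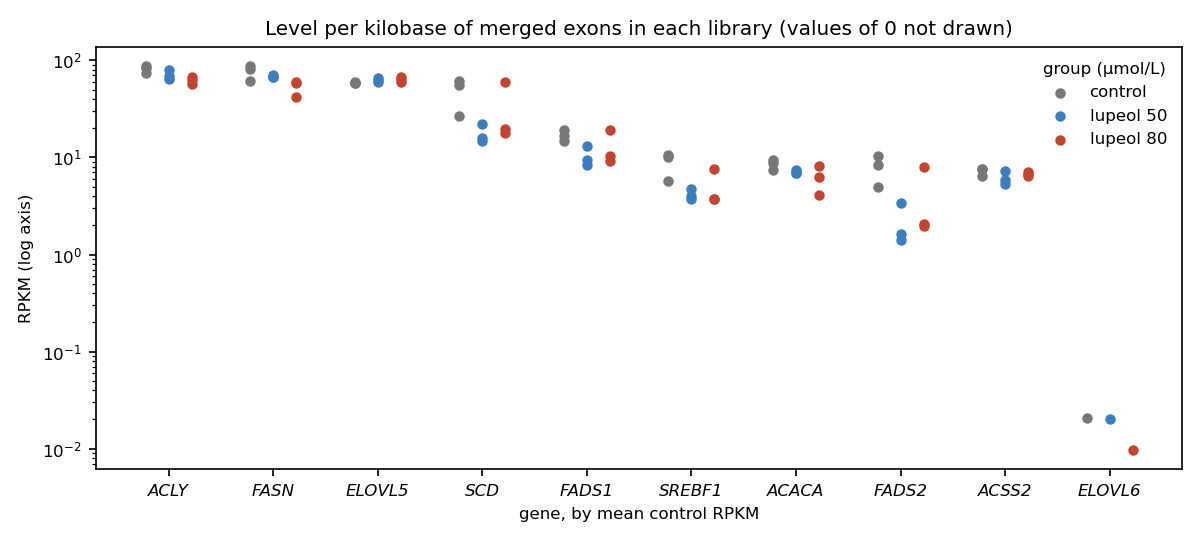
RPKM (log axis) of the 10 genes, ordered by their mean in control, with a point for each library of control, lupeol 50 and lupeol 80, and values of 0 not drawn. ACLY, FASN and ELOVL5 stay above 40 RPKM in every library, while SCD spans 14.6 to 61.1 RPKM and FADS2 1.40 to 10.5 RPKM.

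The genes around the pathway were read from 8 lists, each count below is of tested genes, and edgeR called 1.14% of all genes at lupeol 80. Every gene called here lost its call at lupeol 80 without control 1. Of 26 genes of SREBP processing and lipogenic transcription control, 13 were below control at lupeol 80 and 16 at lupeol 50, and none was called. USF1, an E-box factor, stood at -0.46 ± 0.11 (SE) at lupeol 80 (edgeR adjusted p = 0.052), RXRB, a partner of LXR, at -0.37 ± 0.11, and NFYC, a subunit of NF-Y, at 0.01 ± 0.10. Of 14 genes of substrate and NADPH supply, 6 were below control at lupeol 80 and 11 at lupeol 50, and none was called. SLC25A1, the carrier that exports citrate from mitochondria, had 221, 218 and 181 CPM in control, 177, 114 and 136 CPM at lupeol 50, and 142, 140 and 151 CPM at lupeol 80. All 6 lupeol libraries lay below the controls, as did those of 3.55% of all genes, and SLC25A1 was named for its small p with both doses. Its log2 fold change for both doses was -0.53 ± 0.12 (edgeR adjusted p = 0.075). ME1, the malic enzyme that makes NADPH, stood at 0.56 ± 0.13 at lupeol 80 (edgeR adjusted p = 0.051).

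Of 14 tested genes on the list around acetyl-CoA carboxylase, 2 were called at lupeol 80, against 1.14% of all genes, and 1 of these 2, NQO1, does not act on the carboxylase. STK11, the kinase LKB1 that activates AMPK, fell to 80.4, 114 and 105 CPM at lupeol 80, against 154, 160 and 144 CPM in control (log2 fold change -0.61 ± 0.14, edgeR adjusted p = 0.041). NQO1, which stood on the list but is a quinone reductase and target of NRF2, rose to 114, 94.6 and 134 CPM at lupeol 80, against 80.8, 80.9 and 56.2 CPM in control (0.65 ± 0.15, edgeR adjusted p = 0.046). MID1IP1, a protein that promotes polymerisation of the carboxylase, stood at -0.37 ± 0.15 at lupeol 80 and -0.62 ± 0.15 at lupeol 50, and was not called.

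Of 18 tested genes of other elongation and desaturation enzymes, 11 were above control at lupeol 80 and 9 at lupeol 50, and 1 was called, against 1.14% of all genes at lupeol 80. HACD3, a dehydratase of the elongation cycle, rose to 71.5, 65.1 and 72.8 CPM at lupeol 80, against 50.7, 52.3 and 46.7 CPM in control (0.48 ± 0.11, edgeR adjusted p = 0.046). The dehydratase HACD2 stood at 0.43 ± 0.13 and the reductase TECR at -0.14 ± 0.11 at lupeol 80. ELOVL4, an elongase of very long chains, stood at 2.31 ± 0.64 (edgeR adjusted p = 0.076) but had at most 1.27 CPM in any library. Of 10 genes of mitochondrial fatty acid synthesis, 5 were below control at lupeol 80 and 4 at lupeol 50, and none was called.

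Of 26 tested genes of acyl-CoA activation and glycerolipid synthesis, 16 were below control at lupeol 80 and 11 at lupeol 50, and 1 was called, against the same 1.14%. GPAT3, a glycerol-3-phosphate acyltransferase, rose to 3.87, 5.98 and 7.11 CPM at lupeol 80, against 1.86, 2.72 and 2.47 CPM in control (1.26 ± 0.27, edgeR adjusted p = 0.038). All 22 tested genes of cholesterol synthesis and uptake were below control at both doses, with medians of -0.53 at lupeol 80 and -0.67 at lupeol 50. FDPS, the farnesyl diphosphate synthase, was the 1 called of the 22, and fell to 60.4, 62.4 and 58.9 CPM at lupeol 80, against 94.1, 97.9 and 81.8 CPM in control (-0.59 ± 0.13, edgeR adjusted p = 0.038). Of 10 tested LXR targets, 8 were below control at each dose, and PLTP, the phospholipid transfer protein, fell to 38.1, 36.7 and 29.4 CPM at lupeol 80, against 55.1, 56.6 and 51.7 CPM in control (-0.65 ± 0.15, edgeR adjusted p = 0.043). ABCA1, the cholesterol exporter, stood at -0.49 ± 0.95 at lupeol 80 and was not called.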

How the data were processed

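The authors deposited 1 table of raw read counts per gene for the 9 libraries, with gene lengths, per the file headers. Per the submitters' processing notes, Bowtie 0.12.2 and the mouse build mm8 were used, but the table holds human Ensembl genes, and all 35993 gene IDs shared with GENCODE 29 have the same GRCh38 positions there. The sources used here do not say how reads were counted, whether strand was used or how multiply aligned reads were handled. Of 67928 genes, 1 had empty values and was left out. The 37 mitochondrial genes had no count. Controls A and B differed beyond sampling noise (a chi-square of 24.97 for each degree of freedom) and were kept as 2 libraries.

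Counts were fitted with edgeR 4.0.16 in R 4.3.3: filterByExpr, TMM factors (0.977 to 1.02), a robust quasi-likelihood fit with 3 group means over the 9 libraries, and Benjamini-Hochberg adjustment over 17568 genes, called at 0.05. SE is the absolute log2 fold change over the square root of F. CPM are TMM-scaled, and RPKM divide them by the deposited length, which for these genes equals their merged deposited exons. Log2 CPM have a prior count of 2, and ratios a pseudocount of 0.5. Alternatives used DESeq2 1.42.0, limma 3.58.1 (voom), other scaling, filters and left-out libraries. The edgeR step was tested on simulated data. From each list, called genes, the 2 of highest mean and the 2 of smallest p for both doses could be named, and the 8 nearest genes by Pearson's r among those with a mean of at least 5 CPM. Some items are not reported here. INSIG1 was described after its values were seen. Members, lists and tests were chosen with earlier results of these data known. Promoter windows came from RefSeq (GRCh38.p14). Intervals and floors cover counting error only. Scripts ran in Python 3.11.15 with scipy 1.17.1.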

Additional observations from a re-analysis of the deposited data

How the results depend on the processing

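Against control, all 9 members kept the direction of their fold change under every one of the 19 alternative settings that gave a value. The calls did not. With no expression filter, 2 members were called lower at lupeol 80 and 1 with both doses. Over the 33754 genes with a count, 861, 520, 659 and 661 were then called for lupeol 80, lupeol 50, lupeol 80 against lupeol 50, and both doses. DESeq2 called 2 members lower at lupeol 80, against 4.65% of the 13467 genes it tested there, and its totals were 897, 210, 418 and 407 genes in that order. With control B and also lupeol 80 replicate 1 left out, 17974 genes were tested. Then 6 members were called lower at lupeol 80, against 2.64% of all genes, and 3 at lupeol 50, against 2.21%. With both doses 7 members were called, among 1330 genes called either way of the 17974 tested. This pair of libraries was chosen with their values known, so these calls are not independent evidence. The totals called either way were 860 at lupeol 80, 913 at lupeol 50, 1330 with both doses and 25 between the doses. With a mean of at least 5 CPM, 124 genes were called at lupeol 80 and 5 between the doses, with limma-voom 106 and 2, with only the groups compared 78 at lupeol 80 and 1 at lupeol 50, and with controls A and B summed 1 at lupeol 80 and 20 between the doses. No scaling gave 14 between the doses. The cause of these shifts was not tested.

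Without 1 library at a time, 0 to 386 genes were called at lupeol 80, 0 to 427 at lupeol 50, 1 to 189 between the doses and 0 to 475 with both doses. Members called lower were 0 to 1 at lupeol 80 (FASN, without control B, against 0.801% of all genes). With both doses they were 0 to 2 (without lupeol 80 replicate 1, against 0.739% of all genes). The highest totals came without lupeol 50 replicate 1 (427 at lupeol 50 and 475 with both doses) and lupeol 80 replicate 2 (386 at lupeol 80 and 189 between the doses). Between the doses, directions turned. The log2 difference ran from -0.15 to 0.46 for SREBF1, from -0.07 to 0.53 for FADS1, from -0.08 to 1.42 for FADS2, from -0.0193 to 0.062 for ELOVL5 and from -0.451 to 0.0308 for ACACA, and without both named libraries it was -0.153, -0.0705, -0.08, -0.0208 and -0.452 in that order. At lupeol 80 the log2 ratio of SCD to FASN ran from -0.65 to 0.22, and that of SREBF1 to SREBF2 from -0.182 to 0.0167. No paired analysis was possible because the labels give the libraries no shared replicate numbers, and the numbers used here only name libraries in accession order.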
